A study of Homo sapiens with 2 samples.

Results

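The cells described here are the CAL51 cells with the highest share of transcripts from APOE and APOC1, neighbouring genes of chromosome 19 that encode apolipoproteins. They were chosen by that share: among the 1071 CAL51 barcodes that had at least 5000 UMIs (unique molecular identifiers, each counting 1 captured transcript) and whose sequence did not also occur in the other library, the 15% with the most APOE and APOC1 UMIs per UMI were taken, which gave 161 cells, called APOE/APOC1-high below, against 910 other CAL51 cells. The study profiled single cells of 2 established human triple-negative breast cancer lines, CAL51 and MDAMB468, by Drop-seq, in which a cell and a barcoded bead share a droplet and the 3′ ends of polyadenylated transcripts are read. Each line is 1 library, CAL51 with 1377 and MDAMB468 with 306 of the 1683 barcodes, so there is no replicate culture and no test. The intervals given below cover counting error of UMIs or, for shares of cells, the counting of cells. They cover no variation between cultures. Both groups compared are cells of the same library, and the labels give no treatment or time.

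APOE and APOC1 proteins coat lipoprotein particles. APOE is the ligand by which such particles bind lipoprotein receptors, and APOC1 is a small exchangeable apolipoprotein that can hinder that uptake. The genes lie side by side in a cluster with APOC2 and APOC4 and are best known from liver, macrophages, adipose tissue and astrocytes, where shared distal elements and the oxysterol-activated LXR receptors drive several genes of the cluster together. Breast tumour cells can also express them, and CAL51 is a line with mixed epithelial and mesenchymal features.

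The values that chose the cells are given as a description. The APOE/APOC1-high cells held 1363 to 6052 CPM of the pair (counts scaled to 1000000 UMIs of the cell), with a median of 1967. The other cells held 0 to 1361 CPM, with a median of 319.9, and 141 of them (15.5%) had no UMI of either gene. The score had no gap at the limit, so these cells are the upper end of a continuous range. Summed over cells, APOE (chr19:44905754-44909393 in the GENCODE annotation of GRCh38) had 2452 UMIs or 990.4 CPM in the APOE/APOC1-high cells and 2458 UMIs or 193 CPM in the others. APOC1 (chr19:44914247-44919349) had 2979 UMIs or 1203 CPM against 3110 UMIs or 245 CPM. Every APOE/APOC1-high cell had at least 1 UMI of each gene, which describes the choice of cells and is no separate check of it. In the whole MDAMB468 library APOE had 1 UMI and APOC1 had 0.

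Counts per cell were small near the limit. The lowest cell inside had 30 UMIs of the pair among 22015 UMIs, which is 1363 CPM with an exact Poisson interval of 919 to 1945. The first cell outside had 15 among 11024, which is 1361 CPM with an interval of 762 to 2244. Neighbours across the limit therefore cannot be told apart by their counts.

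**Figure D1:**
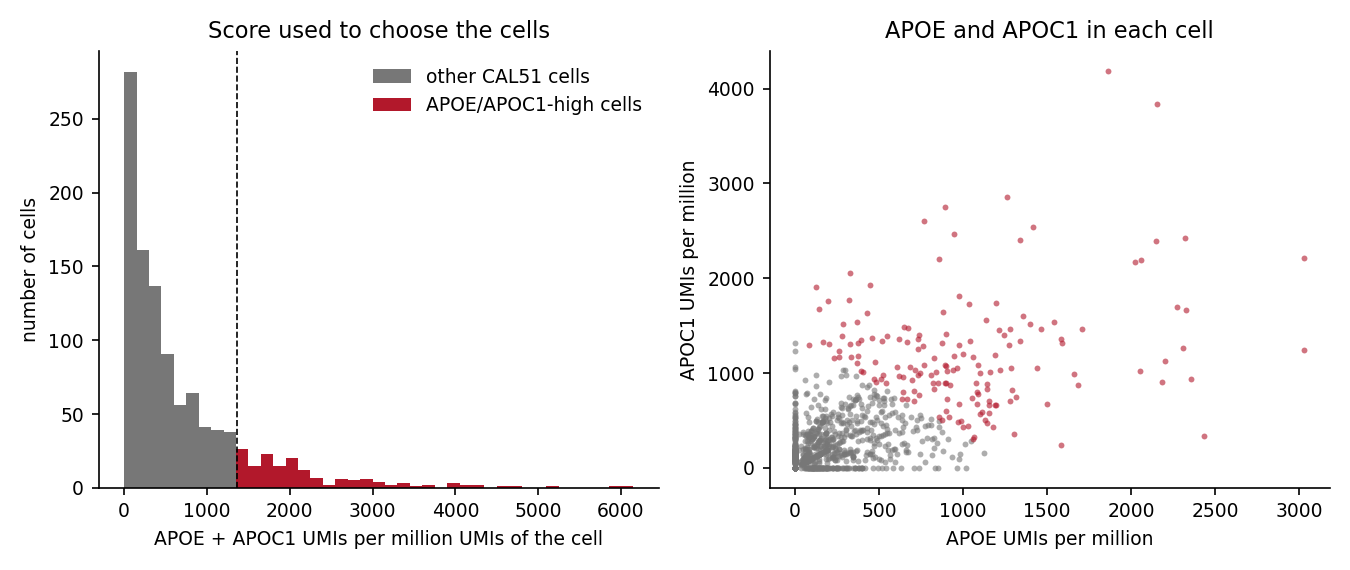
Left, the number of CAL51 cells (y axis) by their summed APOE and APOC1 CPM (x axis), with the APOE/APOC1-high cells in red, the others in grey and the limit dashed. Right, APOC1 against APOE CPM in each cell; the 161 red cells lie at or beyond 1363 CPM of the sum and run into the grey ones without a gap.

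Over the 1071 cells the Spearman correlation of the APOE and APOC1 shares was 0.56, and 0.50 after each cell was thinned to 5000 UMIs. These points share 1 library and the depth of each cell. When cells were ranked by APOE alone, the top 15% had 3.57-fold more APOC1 than the rest (interval 3.39 to 3.76) and shared 121 of 161 cells (75.2%) with the set used here. Ranked by APOC1 alone, the top cells had 3.85-fold more APOE (3.64 to 4.08) and shared 129 of 161 cells (80.1%). These rankings use the same counts as the score, and each gene is part of the sum, so the overlaps are partly built in and only describe the choice of cells.

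The APOE/APOC1-high cells were somewhat deeper than the others and close to them in RNA quality. Their median was 12239 UMIs per cell (range 5118 to 64095) against 10254.5 (5022 to 113702), and the score and the total had a Spearman correlation of 0.13. At 5000 UMIs per cell they showed a median of 2367 genes against 2372.5. The mitochondrial share had a median of 3.76% against 4.24%, and ribosomal protein genes took 13.1% against 12.4%. The MDAMB468 and CAL51 libraries had 31 barcode sequences in common, and the 9 CAL51 barcodes among them with at least 5000 UMIs were left out. The part that depth, free RNA in the droplets and doublets, which were not called, play in the differences below was not tested.

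Markers of macrophages and adipocytes, both known for APOE, were almost absent, and astrocyte markers were not examined. Summed over the 13 macrophage markers in the files, the APOE/APOC1-high cells had 3 UMIs and the others 19, and FCER1G, CSF1R and MARCO were at 0 in all of these cells. The 5 adipocyte markers in the files had 1 UMI against 15, with 4 of them at 0. The 10 markers of MDAMB468 had 3 UMIs against 24, and 7 of them, KRT5, KRT7, KRT14, FXYD3, PI3, AARD and LCN2, were at 0. Keratins of simple epithelia were abundant in both groups: KRT8 stood at 1119 against 899 CPM and KRT18 at 1793 against 1532 CPM.

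The question put to the rest of the transcriptome was which other genes differ between APOE/APOC1-high and other CAL51 cells. APOE and APOC1 were left out of the totals and the results, UMIs were summed over the cells of each group, and a gene was counted as higher or lower when log2(CPM + 1) differed by at least 1.5-fold. On this scale low-count genes differ by less than their ratio of CPM. Of 7756 genes with at least 200 UMIs, 89 (1.15%) were higher and 97 (1.25%) lower, 186 (2.4%) in all, and the median log2 difference over all of them was 0.01. Under TMM scaling, another way to set the totals equal, the counts were 62 higher and 125 lower. Ranking cells within 10 classes of depth gave 66 and 115. The balance of higher and lower genes thus changed with these choices.

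Among the 2956 genes with at least 1000 UMIs, where counting error is smaller, 14 (0.474%) were higher and 21 (0.71%) lower. The higher ones were ANXA4, CALB1, SLC12A2, COL4A1, CROT, AGR2, CTSV, COL4A2, MICALL1, ASAH1, DAB1, DDIT4, TMEM141 and CD47. The lower ones were NTS, EMP1, UACA, SOST, LMO7, ITPRID2, RBP7, IGFBP3, LITAF, PHACTR2, TPM1, FGF18, CCND1, MSRB3, ANXA1, COTL1, CNN2, RND3, CAV2, GPX1 and LRRC75A. This minimum was set after their values were seen. All 35 kept their sign under each of 18 other settings of the choice of cells, scaling and filters. A changed gene minimum leaves a difference as it is and a larger pseudocount cannot change its sign, so neither checks the sign. Other scaling moves all genes nearly alike, by -0.06 at the median under TMM scaling, too little to reverse a gene past 1.5-fold. Leaving out 2 barcodes close in sequence to a larger one, or keeping the 9 shared with MDAMB468, changed few of the cells compared. Kept signs under these settings were therefore largely built in. Of the 35 genes, 20, 11 of the 14 higher and 9 of the 21 lower, also stayed past 1.5-fold under each setting. The 15 that were short of it under at least 1 setting were DDIT4, TMEM141, CD47, GPX1, CAV2, RND3, CNN2, LRRC75A, COTL1, ANXA1, MSRB3, CCND1, FGF18, TPM1 and IGFBP3.

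Upstream sequence of 4 genes on which the comparison turns is shown here: APOE, which chose the cells, ANXA4, the gene with the largest difference among the 14 higher ones, and EMP1 and NTS, the 2 with the largest among the lower ones. Each run is the plus strand, 5′ to 3′, before the most upstream start annotated by RefSeq on GRCh38.p14, ending before the first annotated exon. RefSeq had 3 starts for APOE, 2 for ANXA4 and 1 each for EMP1 and NTS, and which start these cells use was not examined. The ANXA4 start taken here lies upstream of the GENCODE start of the gene given below. Capitals mark matches on either strand to the 7 motifs searched: GGGCGG, which SP factors bind, the CCAAT box, the TATA box as TATAAA, the AP-1 element as TGANTCA, the TEAD element as GGAATG, the LXR element (AGGTCA repeated after 4 bases) and the serum response factor's CArG box.
APOE: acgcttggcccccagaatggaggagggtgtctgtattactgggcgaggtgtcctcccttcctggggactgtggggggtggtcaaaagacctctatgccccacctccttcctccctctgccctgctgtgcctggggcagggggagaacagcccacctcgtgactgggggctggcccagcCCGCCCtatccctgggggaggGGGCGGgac
ANXA4: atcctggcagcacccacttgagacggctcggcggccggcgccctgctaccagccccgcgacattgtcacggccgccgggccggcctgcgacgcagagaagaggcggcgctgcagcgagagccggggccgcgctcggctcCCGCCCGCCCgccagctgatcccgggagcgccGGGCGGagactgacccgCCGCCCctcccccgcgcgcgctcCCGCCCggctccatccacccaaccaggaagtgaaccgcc
EMP1: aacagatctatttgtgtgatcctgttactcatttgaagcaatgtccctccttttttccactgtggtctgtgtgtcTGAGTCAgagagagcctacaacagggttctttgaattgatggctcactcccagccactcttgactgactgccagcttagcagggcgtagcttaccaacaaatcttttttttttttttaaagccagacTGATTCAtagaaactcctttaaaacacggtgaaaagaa
NTS: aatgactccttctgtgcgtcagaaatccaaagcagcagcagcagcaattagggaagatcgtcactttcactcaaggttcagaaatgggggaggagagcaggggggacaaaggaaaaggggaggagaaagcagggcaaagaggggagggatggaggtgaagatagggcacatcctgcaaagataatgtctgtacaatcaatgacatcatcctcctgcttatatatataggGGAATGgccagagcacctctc

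The APOE run (chr19:44905546-44905753) held 2 GGGCGG matches, a motif found in 36.7% of all 35116 RefSeq upstream windows cut to the same 208 bases. The ANXA4 run (chr2:69643558-69643807) held 5, of which 2 overlap, and 42.6% of windows of 250 bases held at least 1. The EMP1 run (chr12:13196476-13196715) held 2 TGANTCA matches, a motif in 6.43% of windows of 240 bases. The NTS run (chr12:85874045-85874294) held 1 GGAATG match, a motif in 11.9% of windows of 250 bases. The LXR element matched none of the 4 runs and 0.0142% of windows. These matches describe letters only.

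ANXA4, which encodes annexin A4, a calcium-dependent phospholipid-binding protein of epithelial membranes (chr2:69644425-69827100), had 1190 UMIs in the APOE/APOC1-high cells and 3122 in the others. That is 482 against 246 CPM, 1.96-fold more (1.83 to 2.10). The median cell held 414 CPM against 151, with quartiles of 164 and 667 against 47.8 and 329. The groups overlap widely, and the upper quartile of the other cells stands below the median APOE/APOC1-high cell. CALB1, the calcium-binding protein calbindin, stood at 123 against 63.5 CPM, 1.94-fold more (1.70 to 2.22), with 13.4% of its UMIs in 1 cell.

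Both chains of the main basement membrane collagen were higher together. COL4A1 (chr13:110148963-110307233, minus strand) stood at 286 against 154 CPM, 1.85-fold more (1.70 to 2.02), and COL4A2 (chr13:110305812-110513209, plus strand) at 114 against 64.9 CPM, 1.75-fold more (1.53 to 2.01). Their RefSeq starts are separated by 126 bases and they are read in opposite directions. The annotated spans overlap, and whether counting used the strand is not stated in the labels. The median cell held 234 CPM of COL4A1 against 107. The products of these genes combine into the type IV collagen trimer.

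Other collagen and matrix genes did not share one direction. Of 16 that passed the minimum, 3 were higher, the 2 above and COL6A1 (log2 difference 0.72), and 3 were lower, COL5A2, COL12A1 (-0.79) and FBN2 (-0.84). The median was 0.11. Of all 7756 genes, 1.15% were higher and 1.25% lower. COL5A2, a chain of fibrillar type V collagen, had 12 UMIs or 4.86 CPM against 219 UMIs or 17.2 CPM. Of 12 genes for collagen processing in the endoplasmic reticulum, 0 were higher and 1 lower, PCOLCE (-0.93), which enhances the trimming of procollagen, with a median of -0.02.

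The other well-counted higher genes are described here by role, a grouping made after the values were seen. AGR2, a protein disulfide isomerase relative that folds secreted proteins such as mucins, stood at 592 against 332 CPM, 1.78-fold more (1.68 to 1.89). CTSV, the lysosomal protease cathepsin V, stood at 334 against 188 CPM, 1.77-fold more (1.63 to 1.92). SLC12A2, the sodium, potassium and chloride cotransporter of secretory epithelia, stood at 177 against 94.3 CPM, 1.88-fold more (1.68 to 2.09). CROT, a peroxisomal enzyme that passes medium-chain acyl groups to carnitine, was 1.79-fold and ASAH1, the lysosomal acid ceramidase, 1.65-fold higher. CD47, the surface protein that restrains phagocytosis, was 1.53-fold higher, MICALL1, an adaptor of recycling endosomes, 1.66-fold, and TMEM141, a small membrane protein, 1.55-fold.

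DAB1 stood at 163 against 99.8 CPM, 1.63-fold more (1.45 to 1.83). It encodes the adaptor that docks on the VLDL and APOE receptors when they bind reelin. VLDLR itself stood at 101 against 79.7 CPM, 1.27-fold more (1.10 to 1.46), short of the limit.

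Of the genes with fewer counts, GPRC5B, an orphan receptor, stood at 65.2 against 27.4 CPM, 2.38-fold more (1.96 to 2.88). RGS2, which switches off G protein signals, was 2.34-fold higher, LYST, a regulator of lysosome size, 2.14-fold, and F11R, a tight junction protein, 2.10-fold. CD44, the hyaluronan receptor, was 1.88-fold and RAB15, an endosomal GTPase, 1.89-fold higher. CYP1A1, a target of the aryl hydrocarbon receptor, was 1.99-fold higher and SLC7A7, a cationic amino acid transporter subunit, stood at 22.7 against 11.3 CPM. These genes span adhesion, endosomes and signalling. Among cells under 5000 UMIs, described below, RGS2 (-0.030) and RAB15 (-0.0093) had log2 differences near 0, so their direction was not kept there.

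Some differences rested on single cells. IFIT2, an interferon-induced gene, had the highest log2 difference, 1.77. Of its UMIs in the APOE/APOC1-high cells 49.6% came from 1 cell, without which the difference was 0.81. Only 5 APOE/APOC1-high cells (3.11%) had any IFIT2 UMI, against 3.96% of the other cells. The 0.81 thus rests on the few remaining cells and does not describe the group as a whole. CCL5, a chemokine, went from 1.03 to 0.58 without its top cell, and KRT19, a simple epithelial keratin, from 0.98 to 0.64. Among cells under 5000 UMIs IFIT2 was at -2.97 and KRT19 at -0.43. SLC2A1, the glucose transporter GLUT1, went from 0.92 to 0.18, as 41.3% of its UMIs came from 1 cell. Of the 30 genes with the highest and lowest differences, 30 kept their sign without their own top APOE/APOC1-high cell and 29 stayed past 1.5-fold. Taking out the cell with the most UMIs of a gene tends to lower its level, so this bears on the 15 highest genes only.

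**Figure D2:**
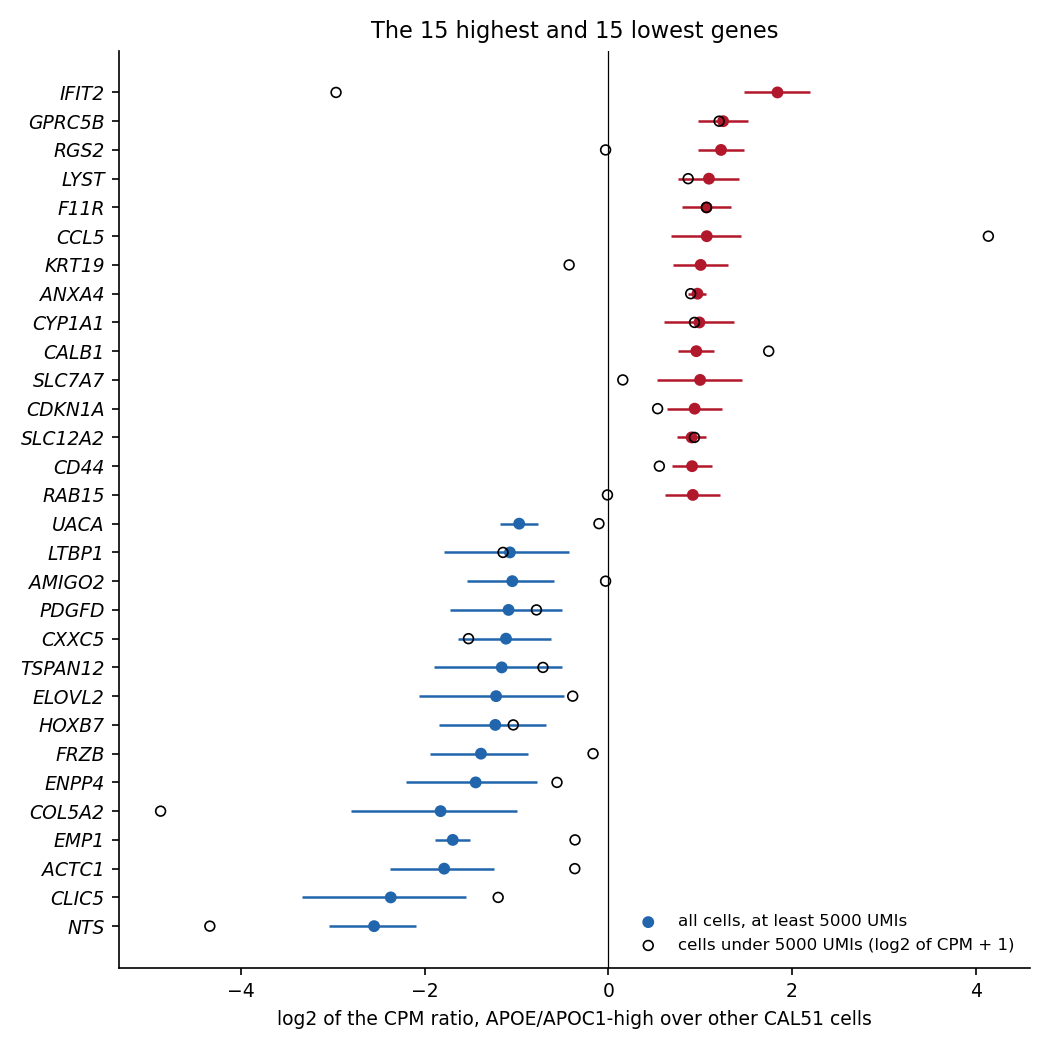
The 15 highest and 15 lowest genes by the naming rule: filled points give the log2 ratio of CPM of APOE/APOC1-high over other cells with exact counting intervals, open points the log2 difference of CPM + 1 in cells under 5000 UMIs. NTS has the lowest filled point and IFIT2 the highest; 26 of 30 open points lie on the same side of 0 as the filled ones.

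EMP1, a small membrane protein of epithelial and other adherent cells (chr12:13196716-13219939), had 245 UMIs in the APOE/APOC1-high cells and 4078 in the others. That is 99.2 against 321 CPM, 3.24-fold less (2.84 to 3.70). The median APOE/APOC1-high cell had 0 CPM and the median other cell 209.9, with upper quartiles of 152 and 524. The groups overlap, and the median other cell lies above the upper quartile of the APOE/APOC1-high cells.

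NTS, the precursor of the secreted peptide neurotensin (chr12:85874295-85882992), had 40 UMIs or 16.2 CPM against 1206 UMIs or 94.9 CPM, 5.86-fold less (4.28 to 8.25). The median cell of either group had 0, and the upper quartile was 0 against 43.3 CPM. CLIC5, a chloride channel family protein tied to the cortical cytoskeleton (chr6:45880827-46080348), had 12 UMIs or 4.86 CPM against 319 UMIs or 25.1 CPM, 5.17-fold less (2.92 to 10.1). At the depth of single cells a count of 0 does not show that a cell lacks the transcript.

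Genes of the actin cytoskeleton among the lower ones are described as a set, a grouping made after the values were seen. TPM1, the tropomyosin that stabilises actin filaments (chr15:63042632-63071915), was the most abundant of them, with 2940 UMIs or 1190.1 CPM against 24683 UMIs or 1943 CPM, 1.63-fold less (1.57 to 1.70). Its median cell held 1133 CPM against 1728, with quartiles of 783 and 1524 against 1163 and 2591. ACTC1, cardiac alpha actin, stood at 11.7 against 40.5 CPM, 3.45-fold less (2.38 to 5.21). UACA was 1.96-fold, LMO7, which sits at adherens junctions, 1.94-fold, PHACTR2, which binds actin and phosphatase 1, 1.68-fold, COTL1, an actin-binding protein, 1.52-fold, CNN2, a calponin, 1.51-fold and RND3, an inhibitor of actin stress fibres, 1.51-fold lower. TAGLN, transgelin, had a log2 difference of -0.55, short of the limit.

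Signalling genes among the lower ones were likewise grouped after the values were seen. SOST, the secreted Wnt antagonist sclerostin, stood at 68.8 against 133.5 CPM, 1.94-fold less (1.66 to 2.28), and FRZB, another secreted Wnt antagonist, at 13.4 against 34.9 CPM, 2.62-fold less. IGFBP3, which binds insulin-like growth factors, was 1.77-fold lower, FGF18 1.60-fold, PDGFD, a platelet-derived growth factor, 2.12-fold, and LTBP1, which holds latent TGF-beta in the matrix, 2.10-fold. CXXC5, a cytoplasmic and nuclear regulator of Wnt signals, was 2.17-fold and TSPAN12, a tetraspanin of the Norrin and frizzled receptor complex, 2.24-fold lower. CCND1, cyclin D1, stood at 327 against 505 CPM, 1.55-fold less (1.44 to 1.67), and was the only one of 5 Wnt targets tested past the limit. The list's median was -0.15, and 2.4% of all 7756 genes were past the limit.

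The remaining genes of the 15 lowest were ENPP4, an ectophosphodiesterase, 2.72-fold lower, HOXB7, a homeobox factor, 2.35-fold, ELOVL2, which lengthens polyunsaturated fatty acids, 2.33-fold, and AMIGO2, an adhesion protein, with 17.0 against 35.1 CPM. The well-counted genes ITPRID2, RBP7, LITAF, ANXA1, MSRB3, CAV2, GPX1 and LRRC75A were 1.51-fold to 1.86-fold lower. ANXA1, annexin A1, stood at 139 against 214 CPM, so the annexins A4 and A1 differed in opposite directions.

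Several of the differences extended below the limit of the group. The other cells were split by score into 4 bins of 227 or 228 cells and the APOE/APOC1-high cells into 2 bins of 81 and 80, and no cell is in both. ANXA4 stood at 177, 193, 264 and 327 CPM from the lowest to the highest bin of the other cells and at 464 and 499.9 CPM in the bins of APOE/APOC1-high cells. COL4A1 stood at 108, 143, 159.5 and 194 CPM and then 265 and 307 CPM. These are ordered groups of cells of 1 library, and the steps were not tested. EMP1 stood at 366, 445, 301 and 198 CPM and then 143 and 53.5 CPM, and TPM1 at 2232, 2082, 1932 and 1616 CPM and then 1208 and 1172 CPM. NTS stood at 157.5, 153, 47.3 and 39.3 CPM and then 24.7 and 7.41 CPM. For these genes the levels changed along the score already below the limit, with no single step at it. EMP1 was highest in the second of the 4 bins. NTS was nearly level over the lowest 2 bins and fell from 153 to 47.3 CPM between the second and the third.

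**Figure D3:**
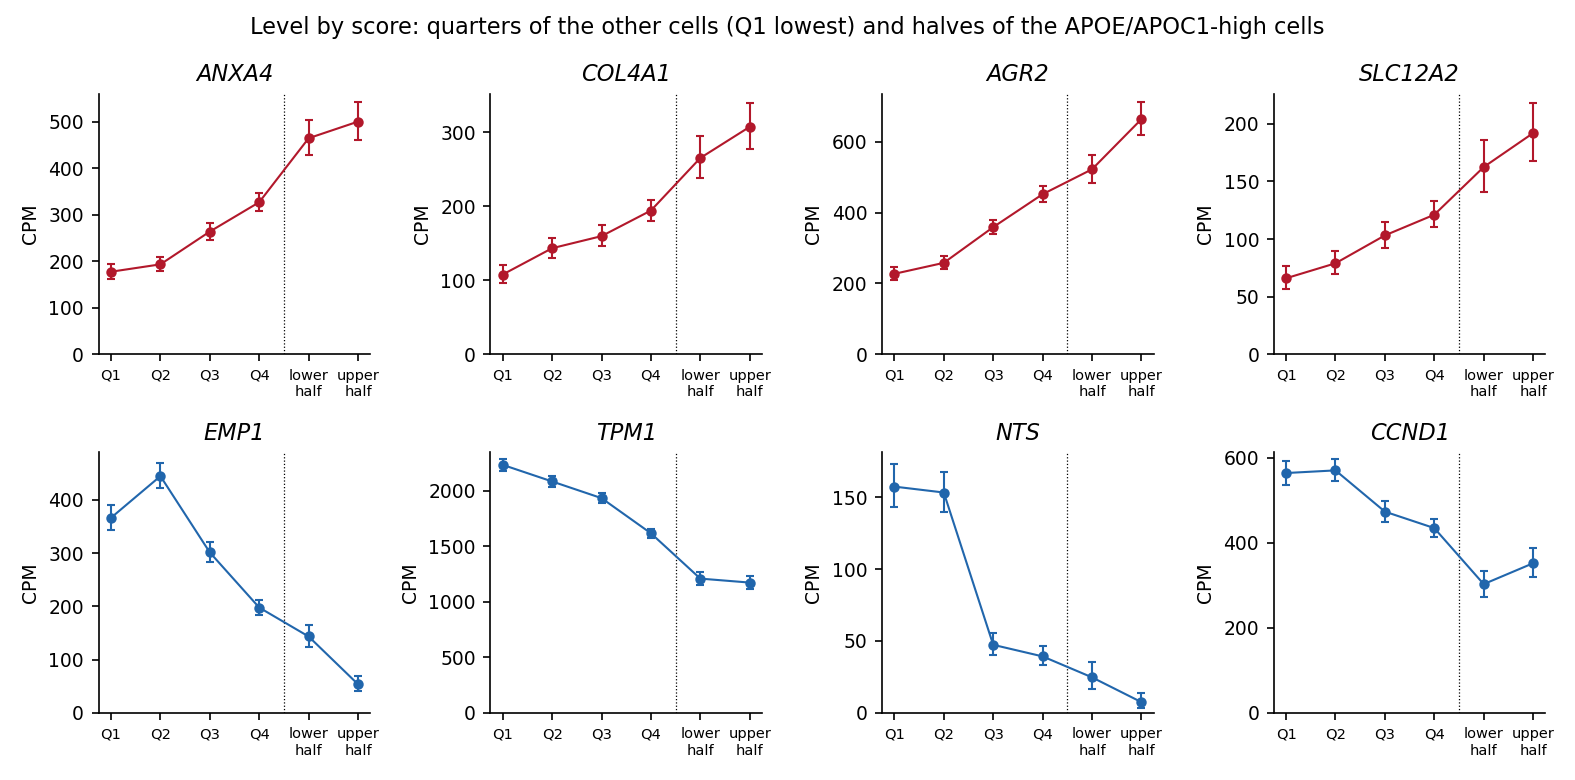
CPM (y axis, from 0) of 8 genes in 4 bins of the other CAL51 cells by score (Q1 lowest) and in 2 bins of the APOE/APOC1-high cells, with exact Poisson intervals. ANXA4 runs from 177 to 499.9 CPM and EMP1 from 366 to 53.5 CPM along the score.

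Within the other cells alone, all 14 of the well-counted higher genes had more CPM in the highest than in the lowest of the 4 bins, and 19 of the 21 lower genes had less. Of all 2956 such genes, 50.4% had more. The exceptions among the 21 were GPX1, with 64.5 CPM in the lowest and 66.2 in the highest bin, and LRRC75A, with 103 and 106 CPM. SOST (133 and 130 CPM) and CNN2 (115 and 110 CPM) differed little between these bins. The 297 CAL51 barcodes under 5000 UMIs were not ranked with the rest. Of these, 275 had no sequence shared with MDAMB468, and the top 15% by the same score were 41 cells. Of the 35 well-counted genes 32 had the same sign there, the exceptions being ASAH1 (-0.05), MSRB3 (0.07) and LRRC75A (0.34). Of 57 higher genes with at least 20 UMIs in these shallow cells, 44 (77.2%) were higher, and of 68 lower genes 53 (77.9%) were lower. Of all 6552 genes with that many, 47.2% were higher. EMP1 differed less there, by -0.36 on the log2 scale against -1.68, and NTS more, by -4.34 against -2.48.

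Of 26 genes of cholesterol synthesis and uptake that passed the minimum, 0 were past the limit in either direction, 19 were below 0 and the median was -0.13. Of all 7756 genes 2.4% were past the limit, so a count of 0 here and in the lists below is near that share. HMGCS1, which makes the precursor of mevalonate, stood at 106 against 145 CPM, and INSIG2, which retains the sterol sensor in the endoplasmic reticulum, at 25.9 against 18.8 CPM. Of 5 LXR targets and sterol export genes 0 were past the limit, with a median of 0.15. Among them PLTP, which transfers phospholipid between lipoproteins, stood at 42.1 against 31.9 CPM, and ABCA1, the cholesterol exporter, had 5 UMIs against 19, too low for a comparison at this depth. SCD, the stearoyl-CoA desaturase, stood at 555 against 436 CPM, 1.27-fold more, from 1370 and 5545 UMIs.

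Of 7 lipoprotein receptors 0 were past the limit, beside 2.4% of all genes, with a median of 0.13. LRP6, a Wnt co-receptor of the same family, stood at 81.0 against 54.8 CPM, 1.48-fold more (1.26 to 1.73). Of 14 fatty acid synthesis genes (median 0.04) and 3 lipid droplet genes (0.12), 0 were past the limit, and of 31 lysosomal genes, whose median was 0.06, only ASAH1 was (0.72). Of 22 other apolipoproteins and hepatic secreted genes, 14 had an entry in the data, ALB, AFP and TTR not among them. Only 4 passed the minimum. Of these APOL2, an intracellular apolipoprotein L, stood at 44.1 against 24.8 CPM, 1.78-fold more (1.42 to 2.22). CLU, the secreted chaperone also called apolipoprotein J, stood at 96.3 against 99.2 CPM.

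Of 11 neighbours of APOE and APOC1 on the chromosome that passed the minimum, 0 were past the limit, with a median of 0.12. Of all 7756 genes 2.4% were past it, so 0 of 11 does not set the neighbours apart. TOMM40, the mitochondrial import channel gene next to APOE, stood at 77.7 against 81.9 CPM, 0.95-fold (0.81 to 1.11). BCAM, a laminin-binding adhesion protein, stood at 91.9 against 73.0 CPM, 1.26-fold more (1.08 to 1.46). Among cells under 5000 UMIs, BCAM (-0.11), LRP6 (-0.44) and PLTP (-0.43) had log2 differences below 0, so their direction was not kept there. APOC2 and APOC4 had no entry under these symbols in the table used here.

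CDKN1A, the cell cycle inhibitor p21, had 131 against 351 UMIs, or 1.92-fold more per UMI (1.56 to 2.35), with 18.3% of its UMIs in 1 cell. Without that cell its log2 difference was 0.65. Cell cycle calls are given as a description, since cells of 1 library are not replicates. Phases were called from S and G2/M genes in cells thinned to 5000 UMIs. Of the APOE/APOC1-high cells 27 of 161 were called G1 (16.8%, Clopper-Pearson interval 11.4 to 23.5%), against 84 of 910 others (9.23%, 7.43 to 11.3%). G2/M took 52.2% against 56.9% and S 31.1% against 33.8%. All 43 S phase genes passed the minimum, with 0 past the limit, 30 below 0 and a median of -0.09, and of the 54 G2 and M phase genes 0 were past it, 48 were below 0 and the median was -0.08. MKI67, the proliferation antigen, stood at 683 CPM in the APOE/APOC1-high cells and 684 CPM in the others. Within each of G1, S and G2/M, 32 of the 35 well-counted genes kept their sign, all except DDIT4, RND3 and FGF18. The part of free RNA in the phase calls was not tested.

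**Figure D4:**
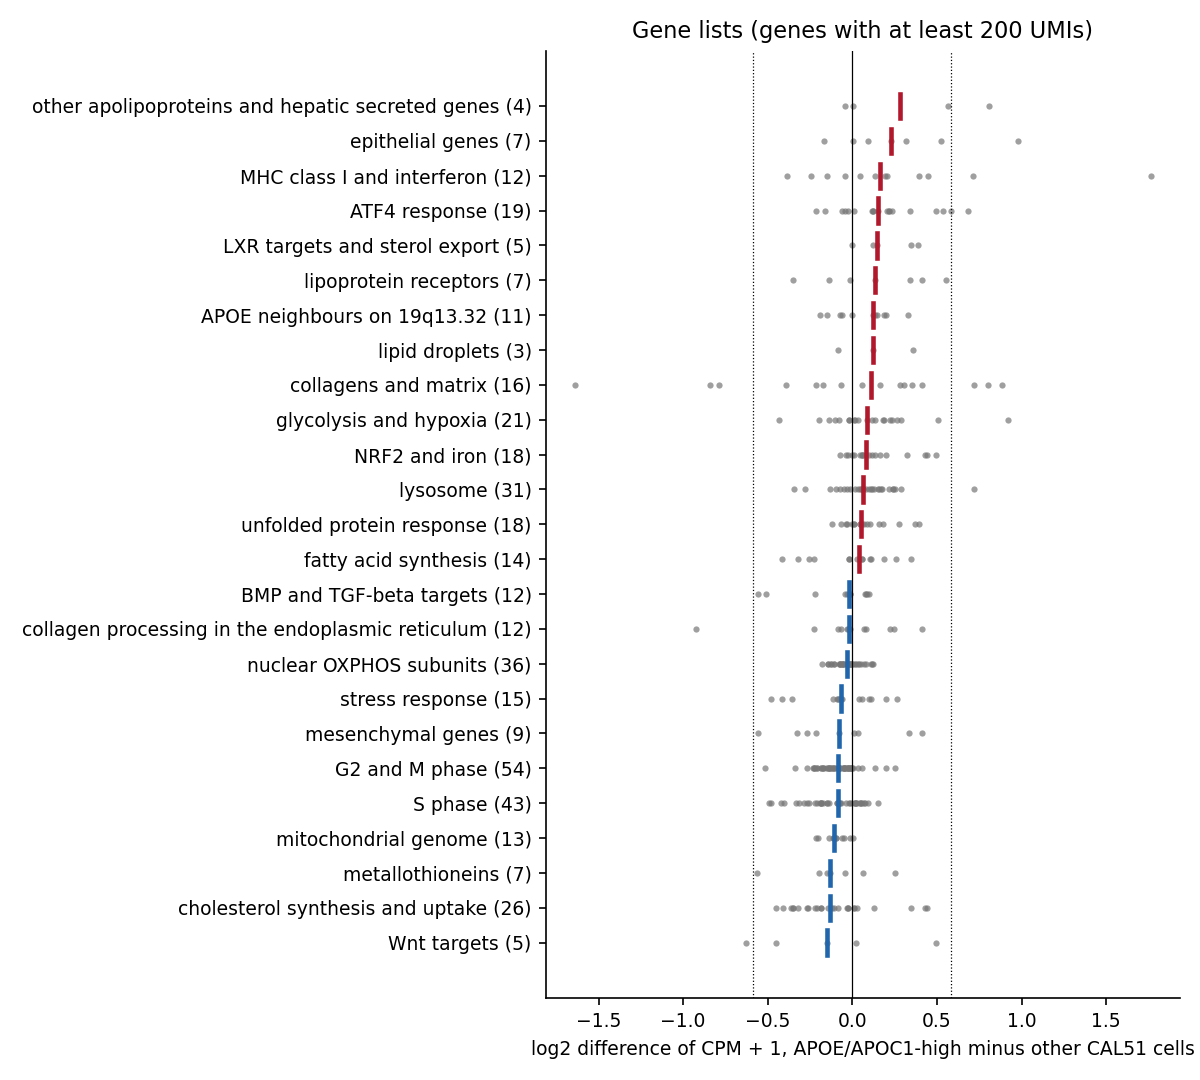
Each grey point is a gene that passed the minimum, placed by its log2 difference of CPM + 1 between APOE/APOC1-high and other CAL51 cells, in rows by gene list with the number of genes in brackets; coloured bars are medians and dotted lines mark 1.5-fold. The median of the cholesterol synthesis and uptake genes lies at -0.13 and that of the MHC class I and interferon genes at 0.16; not every list computed is shown.

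Epithelial genes had a median of 0.23 over 7, with KRT19 alone past the limit, and mesenchymal genes -0.08 over 9, with 0 past it. VIM, the mesenchymal filament vimentin, stood at 291 against 339 CPM. Of 12 BMP and TGF-beta targets 0 were past the limit (median -0.02). Of 12 MHC class I and interferon genes 2 were higher, IFIT2 and ISG15 (79.7 against 48.3 CPM), with a median of 0.16. IFIT2 had UMIs in only 5 APOE/APOC1-high cells and was at -2.97 among cells under 5000 UMIs. Of all 7756 genes 1.15% were higher and 1.25% lower.

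Other groups of CAL51 cells in the same library were taken by the same kind of score, the 161 highest in COL3A1 and COL2A1, cartilage and fibrillar collagens, and the 161 highest in PTGDS and ADAMTS8, a prostaglandin synthase and a matrix protease. Of the APOE/APOC1-high cells 13 (8.07%, 4.37 to 13.4%) were also COL3A1/COL2A1-high, against 148 of 910 others (16.3%, 13.9 to 18.8%). In the PTGDS/ADAMTS8-high group the shares were 13.7% (8.77 to 19.95%) and 15.3% (13.0 to 17.8%). COL3A1 had 5 UMIs among the 2475822 of the APOE/APOC1-high cells and 60 among the 12709939 of the others, below the minimum of 200. COL2A1 stood at 69.6, 68.4, 41.1 and 54.4 CPM from the lowest to the highest of the 4 bins of other cells. In the 2 bins of APOE/APOC1-high cells it stood at 62.9 and 23.9 CPM.

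Each group was compared with all CAL51 cells outside it, so the comparisons share most of their control cells and no relation between them is given. ANXA4 had a log2 difference of 0.97 in the APOE/APOC1-high, -1.13 in the COL3A1/COL2A1-high and 0.47 in the PTGDS/ADAMTS8-high cells. NTS had -2.48, 2.28 and -1.41 in the same order, EMP1 -1.68, 0.32 and 0.67, TPM1 -0.71, 0.55 and -0.00, and CD44 0.90, -4.18 and 0.48. COL4A1 had 0.89, -0.06 and -0.07. Of the 14 higher well-counted genes, 0 were past the limit upward and 5 downward in the COL3A1/COL2A1-high cells. Of the 21 lower ones, 10 were past it upward and 0 downward. Of all 2956 genes with as many UMIs, 1.59% were past it upward and 1.93% downward in that group. In the PTGDS/ADAMTS8-high cells the figures were 1 and 0 of 14, and 5 and 1 of 21, beside 0.812% upward and 0.372% downward of all 2956. The difference between the groups was not tested.

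**Figure D5:**
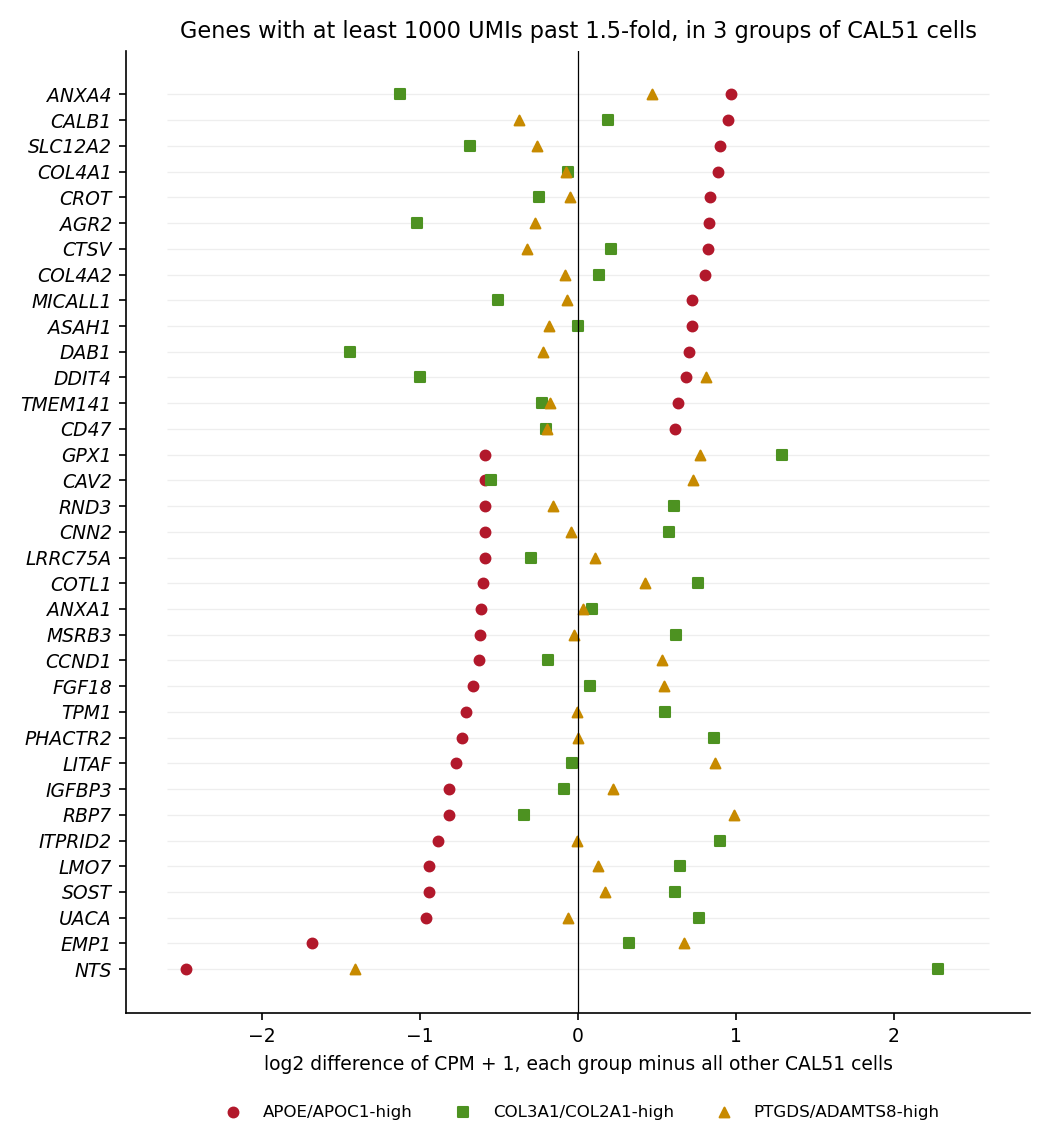
The 35 genes with at least 1000 UMIs past 1.5-fold, by log2 difference of CPM + 1 (x axis) in APOE/APOC1-high (red), COL3A1/COL2A1-high (green) and PTGDS/ADAMTS8-high (orange) cells, each against all CAL51 cells outside the group. NTS lies at -2.48 in red and 2.28 in green, and COL4A1 at 0.89 in red with both others near 0.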

How the data were processed

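Per the labels, 3′ transcript libraries of CAL51 and MDAMB468 cells were made with Drop-seq, 1 library per line. The authors deposited raw UMI counts per gene and barcode, with no normalisation visible in the values, and the submitters' processing notes name STARsolo. Not given in the sources used here are its version, the genome build, the annotation and the selection of barcodes. No deposited barcode had fewer than 2501 UMIs. Barcode names gave the line, and 30730 of 30796 gene identifiers had a symbol. Positions are those of GENCODE 29.

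The cells and gene lists were chosen with earlier results of these data known. Counts were summed over the cells of a group and scaled to 1000000 UMIs (CPM), without APOE and APOC1 in the totals. Genes with at least 200 UMIs over both groups were compared on log2(CPM + 1), with a pseudocount of 1 and a limit of 1.5-fold. With 1 library, no p-value was computed. Poisson intervals, conditional intervals of folds and Clopper-Pearson intervals are exact, at 95%. The first 2 kinds cover counting error of UMIs only. Clopper-Pearson intervals take the cells of 1 library as trials and cover no variation between cultures. The steps were tested on simulated data.

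Named genes are the 15 highest and 15 lowest differences with the same sign under every planned setting, the extremes of each list, and fixed genes such as TOMM40 and MKI67. Results for 1 list and for a few genes are not given here. Well-counted genes had at least 1000 UMIs, a rule added after values were seen. Alternatives changed the share of cells taken, the depth minimum, the scoring genes, thinning, scaling, weighting of cells and phases, gene minimum and pseudocount. Added afterwards were the cells under 5000 UMIs and leaving out a gene's top cell. TMM factors came from edgeR 4.0.16 in R 4.3.3 and phase calls from scanpy 1.11.5, and all else was run in Python 3.11.15 with scipy 1.17.1, numpy 2.4.6 and pandas 2.3.3.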

Additional observations from a re-analysis of the deposited data

How the results depend on the processing

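The 89 higher genes became 169 with a minimum of 100 UMIs per gene, 28 with a minimum of 500, 35 with a pseudocount of 10 CPM and 11 in only the cells under 5000 UMIs, whose low counts leave fewer genes above the minimum. The 97 lower genes became 212, 33, 33 and 18 under the same settings, 158 with the top 10% of cells, 64 with the top 20%, and 154 with the mean of the CPM of each cell. Under the other settings the counts ran from 62 to 121 higher and from 77 to 125 lower. The share of higher among all calls was 47.8% as reported, 33.2% under TMM scaling, which moved the median of all genes by -0.06, and 36.5% with cells ranked within 10 classes of depth. The 15 highest and 15 lowest named genes were chosen to keep their sign under every planned setting. Few opposite signs among genes past 1.5-fold were therefore built in. Of 740 values of the 37 named genes past 1.5-fold, 7 had the opposite sign. Of those, 6 came from the cells under 5000 UMIs: IFIT2 (-2.97), RGS2 (-0.030), KRT19 (-0.43), SLC2A1 (-0.35), RAB15 (-0.0093) and ASAH1 (-0.054). SLC2A1 was also at -0.014 without the 2 barcodes that lie 1 base from a much larger one. The cause was not tested in either case. Of 1200 values of the 60 named genes short of 1.5-fold, 75 had the opposite sign, 22 of them in the cells under 5000 UMIs. No paired analysis was possible because each line is 1 library. Depth limits the set: 9 UMIs of the pair sufficed for a cell to enter it.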

Other observations

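Stress and metabolic lists are given beside the median of all genes, 0.01, and the share of all genes past 1.5-fold, 2.4%. Of 19 genes of the ATF4 response, 1 was past 1.5-fold, DDIT4, an mTORC1 inhibitor, at 149.8 against 92.9 CPM, and the median was 0.15. Of 18 genes of the unfolded protein response 0 were past it, with a median of 0.05, and HERPUD1, which helps to clear misfolded proteins, stood at 268 against 204 CPM. Of 21 glycolysis and hypoxia genes SLC2A1 alone was past it, through 1 cell, with a median of 0.09. Of 18 NRF2 and iron genes, 15 stress response genes, 7 metallothioneins and 36 nuclear subunits of oxidative phosphorylation, 0 were past it, with medians of 0.08, -0.06, -0.13 and -0.03. Of the 13 protein-coding genes of the mitochondrial genome, 12 were below 0 in the APOE/APOC1-high cells, with a median of -0.11 and 0 past the limit.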
